A study of Rattus norvegicus with 12 samples.

Results

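The transcript levels of 9 regulators of AKT and mTOR signaling were compared between mild hypoxia-preconditioned oligodendrocyte precursor cells (mild-hypo-OPCs) and standard OPCs. The members were chosen by symbol, not by their values, but with earlier results of these data known. They are Mtor, Rptor, Rictor, Deptor, Tsc1, Tsc2, Rheb, Ddit4 and Akt1. All 9 were found among the 30562 genes of the deposited count table, and for a symbol with several entries the one with the highest total count was taken. Bulk RNA sequencing was performed on primary wild-type rat OPCs. There were 6 libraries of mild-hypo-OPCs kept at a fraction of inspired oxygen (FiO2) of 5%. The controls were 6 libraries of standard OPCs, for which the methods of the study give no oxygen level. The labels give an exposure of 6 hours, whereas the methods of the study describe mild hypoxia lasting days, so the duration is uncertain. According to those methods, the cells came from the cortices of neonatal Sprague-Dawley rats, were separated from astrocytes and microglia by shaking and differential adhesion, and were grown in both conditions with FGF-2, PDGF-AA and B27 supplement. The libraries are numbered replicates of 1 condition, and nothing in the labels shows that they came from separate cultures, while a figure legend of the study gives fewer biological replicates per group than there are libraries. The number of independent cultures may therefore be below the n = 6 printed here, and the p-values below measure the spread between libraries, which may be partly technical.

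The kinase mTOR works in a pair of complexes, mTORC1, which is marked by Raptor (Rptor) and drives protein and lipid synthesis, and mTORC2, which is marked by Rictor and phosphorylates AKT. The small GTPase Rheb switches mTORC1 on, the TSC1-TSC2 complex switches Rheb off, AKT inhibits TSC2, and REDD1, the product of the hypoxia-inducible gene Ddit4, acts upstream of the TSC complex to dampen mTORC1. In the oligodendrocyte lineage, AKT and mTOR signaling is known for promoting differentiation and myelination. The activity of these proteins is set largely by phosphorylation, which RNA sequencing does not measure.

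The 250 bases upstream of 2 start sites are shown, of Ddit4 as a textbook target of hypoxia-inducible factor (HIF) and of Rheb as the member with the clearest difference, chosen after its values were seen. They were read from RefSeq on the GRCr8 assembly, where the Rheb segment lies at chr4:11013133-11013382 on the plus strand and the Ddit4 segment at chr20:28437038-28437287 on the minus strand, both ending at the base before the annotated start. Each is written 5′ to 3′ in the direction of the gene, and capitals mark ACGTG or GCGTG on either strand, the letters of the HIF core motif.
Rheb: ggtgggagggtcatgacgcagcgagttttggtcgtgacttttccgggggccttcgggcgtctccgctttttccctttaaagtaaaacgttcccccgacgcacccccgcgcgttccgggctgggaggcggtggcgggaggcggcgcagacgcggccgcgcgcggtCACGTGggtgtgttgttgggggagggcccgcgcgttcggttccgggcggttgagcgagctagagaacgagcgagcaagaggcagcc
Ddit4: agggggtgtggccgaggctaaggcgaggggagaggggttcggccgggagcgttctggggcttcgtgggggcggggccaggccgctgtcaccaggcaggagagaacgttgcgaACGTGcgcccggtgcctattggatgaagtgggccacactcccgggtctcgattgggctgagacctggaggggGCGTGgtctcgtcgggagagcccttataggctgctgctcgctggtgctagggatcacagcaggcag
In Rheb, the capitals are 1 palindrome that holds ACGTG on both strands, so its matches overlap, and they begin 85 and 86 bases before the start. In Ddit4, ACGTG begins 138 bases and GCGTG 66 bases before the start. RefSeq promoters were matched by symbol for 7 of the 9 members, and those of Rptor and Deptor were not analysed here. ACGTG was found in 3 of the 7 (Rheb, Ddit4 and Tsc2), and GCGTG in 3 (Ddit4, Rictor and Tsc2). Over 33469 promoter segments of the same length, 16.6% held ACGTG and 25.9% held GCGTG, and over the 7870 segments of genes tested here these shares were 22.8% and 46.5%. These matches are a description of the letters, not of bound sites.

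Levels are given as counts per 1e6 of the library total (CPM) after scaling with the trimmed mean of M-values (TMM), a method that sets library factors from the bulk of genes. Differences are log2 fold changes of mild-hypo-OPCs over standard OPCs from the quasi-likelihood test of edgeR, fitted on the 8938 genes with more than 10 CPM, before TMM scaling, in at least 1 library, and a gene was called at a Benjamini-Hochberg adjusted p below 0.05 over all of them. All 9 members passed this filter, Deptor through 1 mild-hypo-OPC library only. The mild-hypo-OPC libraries held 4111669 to 9022324 counts and the standard OPC libraries 1356079 to 2797513, so depth separated the groups completely and its part in a difference cannot be told apart from that of the condition. The summed level of 7 OPC and oligodendrocyte markers, all of them tested, was 11216 to 12416 CPM in mild-hypo-OPCs and 8323 to 11173 CPM in standard OPCs. The largest part was the myelin gene Mbp, with means of 7132 and 5851 CPM. The precursor markers Pdgfra (236 and 229 CPM) and Cspg4 (71.5 and 63.0 CPM) were far lower, so the sum does not measure precursors alone. Markers of other cells were also present, each list lower in sum than these 7 genes. They had 464 to 575 CPM against 447 to 506 CPM for 6 astrocyte genes, 33.1 to 45.9 CPM against 12.9 to 33.3 CPM for 7 microglial genes and 127 to 143 CPM against 70.6 to 110 CPM for 6 neuronal genes. The 7 endothelial and mesenchymal genes found in the table summed to at most 2.49 CPM, with Pecam1, Cdh5, Col1a2, Dcn and Lum at 3 counts or fewer in every library. Of the genes tested, 1 of 5 astrocyte genes rose (Aqp4) and 1 fell (S100b), and 1 of 2 microglial genes (Csf1r) and 1 of 3 neuronal genes (Tubb3) rose. The part of these other cells in the results below was not tested, and in bulk RNA fewer cells of a type and less RNA per cell cannot be told apart.

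Among the 9 members, Rheb fell in mild-hypo-OPCs, no member rose, and 8 did not pass the test. That is 11.1% of the members lower and 0 higher, where 17.0% of all tested genes were called lower and 7.00% higher (1520 and 626 genes), so the share of members called was not above that of genes in general. Before adjustment, 2 members had a p below 0.05, Rheb and Mtor, against 3243 of all 8938 genes. The median log2 fold change was 0.04 over the members and -0.00 over all tested genes. In each of the 9 members the ranges of the groups overlapped, where 2.94% of all tested genes had every mild-hypo-OPC library above every standard OPC library and 5.40% had every one below.

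**Figure D1:**
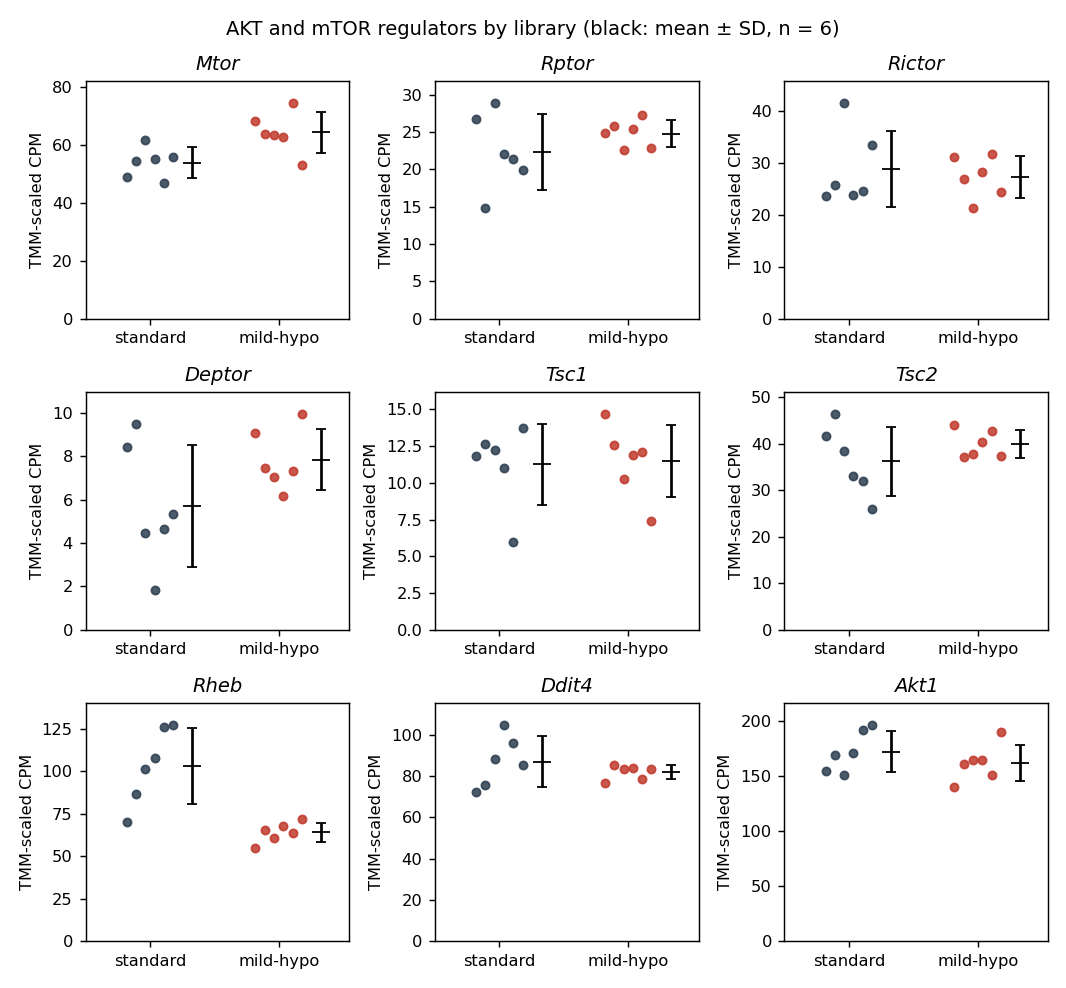
Level of each of the 9 genes (y axis, TMM-scaled CPM, starting at 0) in the 6 standard OPC and 6 mild-hypo-OPC libraries (x axis, points in replicate order), with the mean ± SD in black. Rheb shows the clearest shift, from a mean of 103 to a mean of 64.0 CPM, and Mtor a smaller one, from 53.8 to 64.2 CPM.

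Mtor (ENSRNOG00000009615) encodes the kinase shared by both complexes. Its lowest, median and highest levels were 53.1, 63.5 and 74.5 CPM in mild-hypo-OPCs and 46.7, 54.8 and 61.7 CPM in standard OPCs. Of the 6 mild-hypo-OPC libraries, 5 lay above the highest standard OPC library, and the other, replicate 6, lay inside the standard range. The means were 64.2 ± 7.04 and 53.8 ± 5.36 CPM (SD, n = 6 each), a log2 fold change of 0.26 with a standard error (SE) of 0.10 and an edgeR adjusted p of 0.0535, just outside the threshold (unadjusted p of 0.0132). Mtor crossed the threshold in 5 of 12 other processings, among them DESeq2 with 0.28 and an adjusted p of 0.0330 (8.89% of all genes higher), and when any 1 of 4 single libraries was left out (mild-hypo-OPC replicates 3, 4 and 6 and standard OPC replicate 3). With 1 library left out, 4.91% to 9.22% of all genes were called higher. Under the other processings this share ran from 0.00% to 61.7%, the highest with library size alone, which is among the 5 that called Mtor. Mtor did not pass in libraries thinned at random to the smallest total (edgeR adjusted p of 0.169). Nor did it with each library's trend on gene span removed (0.100) or the log2 total count as covariate (0.929). Among mild-hypo-OPCs, Mtor was 53.1 to 63.8 CPM in the 3 shallowest libraries and 63.2 to 74.5 CPM in the 3 deepest. Among standard OPCs the corresponding ranges were 46.7 to 55.7 CPM and 48.9 to 61.7 CPM.

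Rptor (ENSRNOG00000003821) encodes the scaffold that brings substrates to mTORC1. Its levels spanned 22.6 to 27.2 CPM around a median of 25.1 in mild-hypo-OPCs and 14.8 to 28.9 CPM around 21.7 in standard OPCs. The mild-hypo-OPC range lay inside that of standard OPCs. The difference was a log2 fold change of 0.14 (95% interval -0.14 to 0.41), with an edgeR adjusted p of 0.489.

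Rictor (ENSRNOG00000011341), the defining subunit of mTORC2, had its lowest, median and highest levels at 21.4, 27.6 and 31.9 CPM in mild-hypo-OPCs and at 23.7, 25.3 and 41.7 CPM in standard OPCs. The highest value belonged to standard OPC replicate 3, and the other 5 standard libraries spread like the mild-hypo-OPC libraries. The log2 fold change was -0.07 (95% interval -0.38 to 0.23, edgeR adjusted p of 0.760), and it became 0.07 without standard OPC replicate 3 and 0.01 without mild-hypo-OPC replicate 3.

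Deptor (ENSRNOG00000004328) encodes an inhibitory partner of mTOR. Its levels spanned 6.15 to 9.96 CPM around a median of 7.38 in mild-hypo-OPCs and 1.84 to 9.51 CPM around 5.00 in standard OPCs. The counts behind them were 30 to 87 in a mild-hypo-OPC library and 2 to 22 in a standard OPC library, so counting error was large. Deptor passed the filter only through mild-hypo-OPC replicate 6, at 11.4 CPM before TMM scaling, where the highest standard OPC library had 7.86 CPM, so it entered the test through the group where its mean was higher. The log2 fold change of 0.35 had a 95% interval of -0.17 to 0.88 and an edgeR adjusted p of 0.333. Without a filter on low counts it was 0.38, with an edgeR adjusted p of 0.322.

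Tsc1 (ENSRNOG00000011470) encodes hamartin, which stabilises the GTPase-activating subunit TSC2. Its lowest, median and highest levels were 7.37, 12 and 14.7 CPM in mild-hypo-OPCs and 6.00, 12 and 13.7 CPM in standard OPCs. Each group had 1 library well below the others, mild-hypo-OPC replicate 6 and standard OPC replicate 5. The log2 fold change was 0.04 (95% interval -0.37 to 0.45), with an edgeR adjusted p of 0.918, and its sign changed without replicate 1 of the mild-hypo-OPCs (-0.03) and without replicate 5 of the standard OPCs (-0.08).

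Tsc2 (ENSRNOG00000011375) encodes tuberin, the subunit that turns Rheb off. In mild-hypo-OPCs it lay between 37.1 and 44.1 CPM around a median of 39.0, and in standard OPCs between 26.0 and 46.5 CPM around 35.8. All mild-hypo-OPC libraries fell within the standard range and above its mean of 36.3 CPM. Among standard OPCs, Tsc2 was 26.0 to 33.1 CPM in the 3 shallowest libraries and 38.4 to 46.5 CPM in the 3 deepest. Among mild-hypo-OPCs the corresponding ranges, 37.1 to 40.4 CPM and 37.7 to 44.1 CPM, overlapped. On the log2 scale the fold change was 0.11 (95% interval -0.13 to 0.35), with an edgeR adjusted p of 0.513.

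Rheb (ENSRNOG00000050578) encodes the GTPase that activates mTORC1. Its lowest, median and highest levels were 54.9, 64.5 and 71.9 CPM in mild-hypo-OPCs and 70.0, 104 and 127 CPM in standard OPCs. Of the 6 mild-hypo-OPC libraries, 5 lay below every standard OPC library, and the only overlap was between mild-hypo-OPC replicate 6 at 71.9 CPM and standard OPC replicate 1 at 70.0 CPM. The means were 64.0 ± 5.87 and 103 ± 22.4 CPM (SD, n = 6 each). Rheb fell by 0.67 on the log2 scale (SE 0.12, 95% interval -0.93 to -0.42), to 0.628 of its level in standard OPCs, with an edgeR adjusted p of 0.000632. The call held in all 12 fits that left out 1 library, with log2 fold changes from -0.77 to -0.60, and in 10 of 12 other processings. In the same fits, 13.1% to 18.7% of all genes were called lower with 1 library left out, and 0.481% to 18.5% under the other processings.

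The level of Rheb also moved with depth inside each group, and the part of depth in its difference cannot be separated from that of oxygen in this design. Among standard OPCs, the 3 shallowest libraries (1356079 to 1664627 counts) held 108 to 127 CPM and the 3 deepest (2240615 to 2797513 counts) held 70.0 to 101 CPM. Among mild-hypo-OPCs, the corresponding ranges were 65.2 to 71.9 CPM and 54.9 to 63.9 CPM. With the log2 total count added to the edgeR fit, the Rheb log2 fold change was 0.04 (95% interval -0.37 to 0.45, adjusted p of 0.997), and this fit called 0 genes higher and 43 lower (0.481%) over the whole table. When every library was thinned at random to the smallest total, Rheb remained called, with -0.67 and an edgeR adjusted p of 0.000542 (12.7% of all genes lower).

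**Figure D2:**
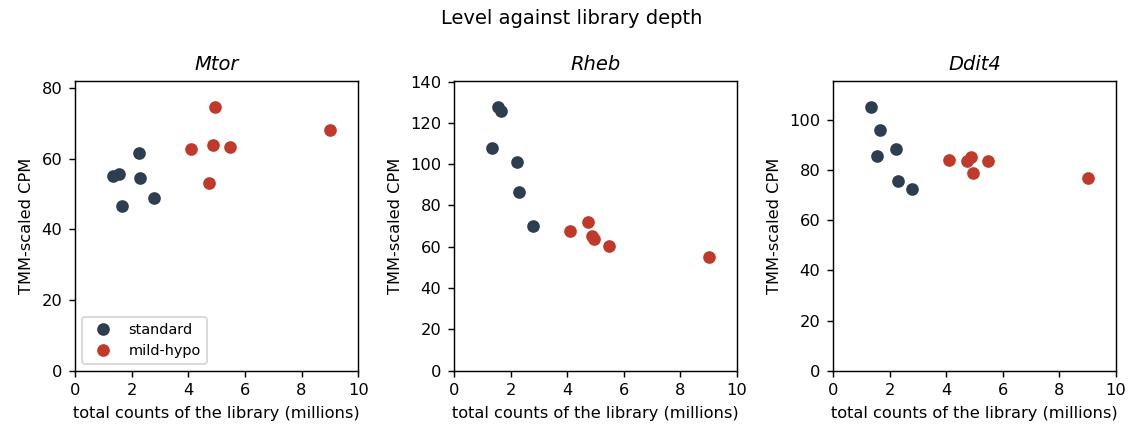
Level of Mtor, Rheb and Ddit4 (y axis, TMM-scaled CPM, starting at 0) against the total count of each library (x axis, in units of 1e6 counts). The groups do not overlap in depth, and the Rheb level is lower in deeper libraries within both groups.

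Ddit4 (ENSRNOG00000057078) encodes REDD1, the hypoxia-inducible brake on mTORC1. Its levels spanned 76.9 to 85.3 CPM around a median of 83.7 in mild-hypo-OPCs and 72.3 to 105 CPM around 87.0 in standard OPCs. The mild-hypo-OPC libraries lay within a narrow band inside the wider standard range and below its mean of 87.1 CPM. The log2 fold change was -0.07 (SE 0.09, 95% interval -0.26 to 0.11), with an edgeR adjusted p of 0.595, and the upper end of the interval is a 1.08-fold higher level. The gene is short, with 2.10 kb from start to end, and among all tested genes split by span into 4 equal groups the median log2 fold change was -0.22 in the shortest, which holds Ddit4, and -0.02, 0.07 and 0.06 in the longer ones. When each library's trend on gene span was removed, the log2 fold change of Ddit4 became 0.28 and was called higher (edgeR adjusted p of 0.0113, with 9.84% of all genes called higher), so its direction depends on this step.

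Akt1 (ENSRNOG00000028629) encodes the AKT kinase on which growth factor and mTORC2 signals meet. Its lowest, median and highest levels were 140, 162 and 190 CPM in mild-hypo-OPCs and 151, 170 and 196 CPM in standard OPCs. The ranges overlapped over most of their width. The fitted log2 fold change was -0.09 (95% interval -0.27 to 0.10), with an edgeR adjusted p of 0.516.

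The direction of small differences depended on scaling. With library size alone in place of TMM, the median of all tested genes moved to 0.43, with 61.7% of them called higher and 4.53% lower, and all members but Rheb were called higher, with Rictor, Ddit4 and Akt1 changing sign. Relative to that median the members kept their signs, from 0.35 for Deptor and 0.27 for Mtor to -0.06 for Ddit4, -0.08 for Akt1 and -0.66 for Rheb.

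**Figure D3:**
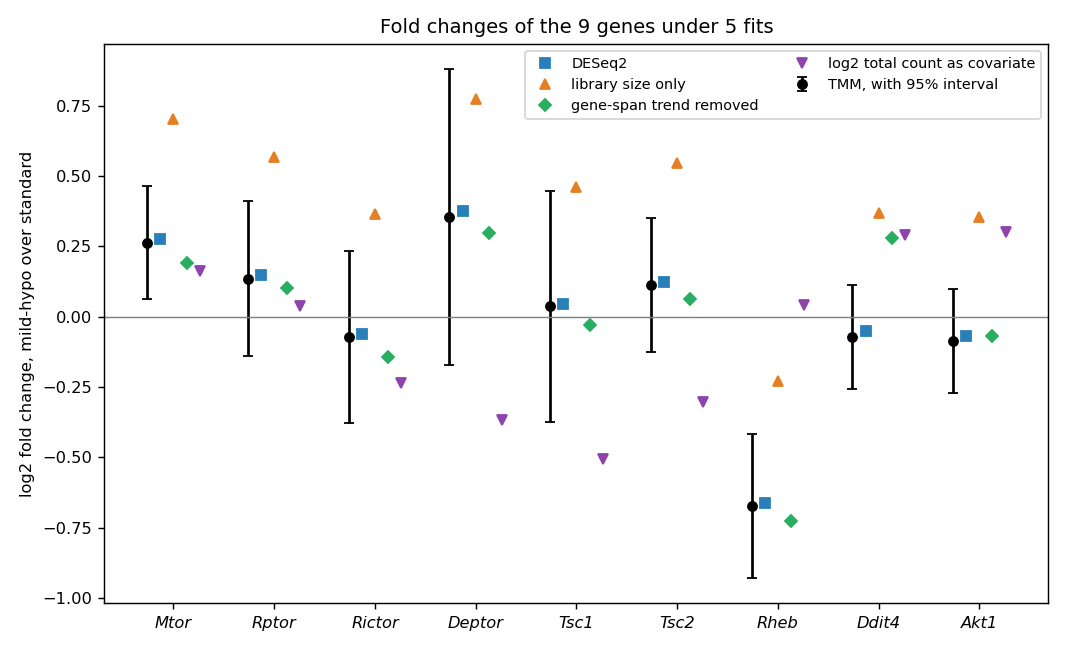
Log2 fold change of mild-hypo-OPCs over standard OPCs (y axis) for the 9 genes (x axis) under 5 fits, with the 95% interval drawn for the TMM fit. Rheb is negative in 4 fits and 0.04 with the log2 total count as covariate, and Ddit4 lies at -0.07 with TMM and 0.28 once the trend on gene span is removed.

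The ratio of 2 transcripts within a library does not depend on how the library is scaled, and ratios of functional partners were compared by two-sided exact permutation tests over the 924 arrangements of the 12 libraries. The log2 ratio of Rheb to Tsc2, of the switch to its inhibitor, was 0.68 ± 0.22 in mild-hypo-OPCs and 1.49 ± 0.60 in standard OPCs (SD, n = 6 each). The ratio was lower by 0.82 on the log2 scale (SE 0.26) and below the standard mean in 6 of 6 mild-hypo-OPC libraries, though the ranges overlapped (exact permutation p of 0.0130, adjusted p of 0.0455 over the 6 ratios computed and of 0.0649 over the 5 shown here, which is not past the threshold). Although scaling cancels in a ratio, counting depth does not, and the adjusted p rose to 0.156 in libraries thinned to equal totals (exact permutation test). The ratio also moved with depth inside each group. Among standard OPCs it was 1.69 to 2.28 in the 3 shallowest libraries and 0.74 to 1.39 in the 3 deepest. Among mild-hypo-OPCs it was 0.74 to 0.94 and 0.31 to 0.68. The part of depth in the ratio's difference cannot be separated from that of oxygen in this design. Leaving out 1 library took the adjusted p above the threshold in 9 of 12 cases, with values from 0.0519 to 0.0909 (exact permutation tests).

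The 4 remaining ratios shown did not pass over either number. Rptor to Rictor, which sets mTORC1 against mTORC2, differed by 0.24 (exact permutation p of 0.184, adjusted p of 0.364). Ddit4 to Tsc2 differed by -0.23 (exact permutation adjusted p of 0.364), and Tsc1 to Tsc2 by -0.14 and Deptor to Mtor by 0.27 (both with an exact permutation adjusted p of 0.587).

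**Figure D4:**
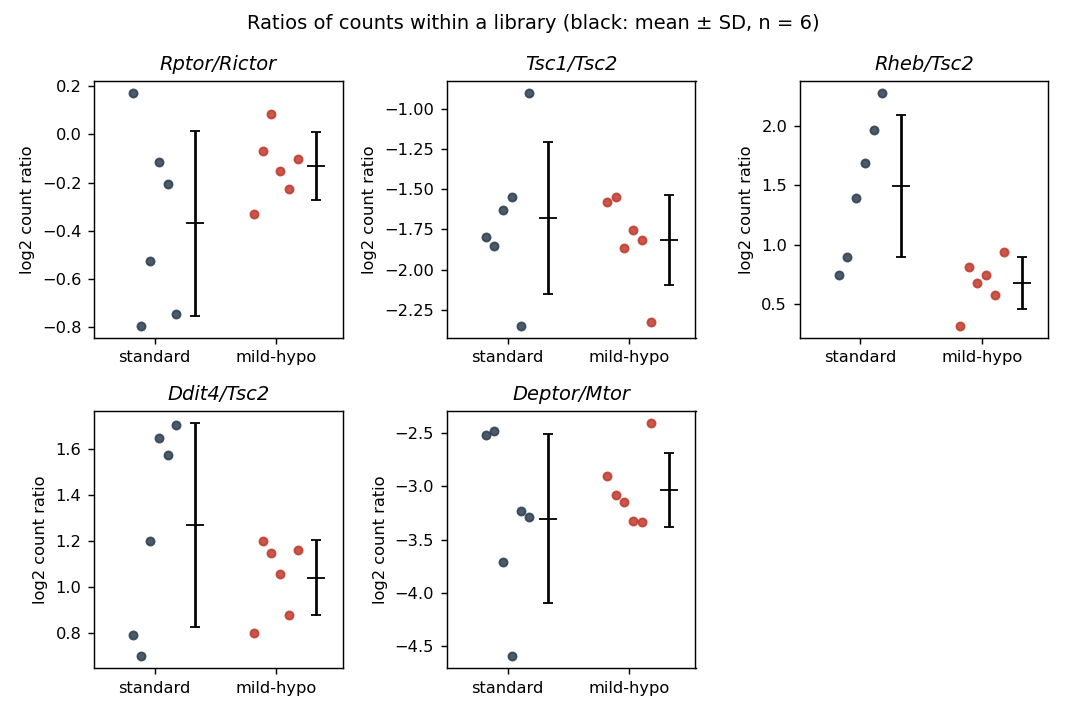
Log2 ratio of 2 transcripts' counts within a library (y axis, 0.5 added to each count) for 5 pairs of genes, in the 6 standard OPC and 6 mild-hypo-OPC libraries (x axis), with the mean ± SD in black. Rheb/Tsc2 lies lower in mild-hypo-OPCs, with means of 0.68 against 1.49.

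The surrounding pathway was followed with 98 further genes in 9 lists, of which 94 were in the table and 76 were tested. Of these, 5 rose (6.58%, against 7.00% of all tested genes) and 11 fell (14.5%, against 17.0%), with a median log2 fold change of 0.03, so both shares lay near those of all genes. In the group around PI3K, the lipid kinase that activates AKT, Inppl1, which encodes the lipid phosphatase SHIP2, rose from 110 ± 19.2 to 143 ± 4.83 CPM (log2 fold change 0.37, edgeR adjusted p of 0.00882), the only call among 9 tested. That is 11.1% higher, against 7.00% of all tested genes. Every mild-hypo-OPC library of Inppl1 lay above every standard OPC library, as was so for 2.94% of all tested genes. Of 7 other mTOR complex subunits and assembly factors, Prr5, which encodes the mTORC2 subunit Protor-1, rose by a log2 fold change of 0.53 (edgeR adjusted p of 0.0462), a call that held in only 5 of 12 fits that left out 1 library. It was the only call of the 7 (14.3% higher, against 7.00% of all tested genes).

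In the amino acid branch every called gene was lower in mild-hypo-OPCs. The Rag GTPases and the Ragulator complex, made of the Lamtor subunits, bring mTORC1 to the lysosome surface where Rheb resides, and 6 of the 10 tested genes of this list fell (against 17.0% of all genes), 0 rose and the median log2 fold change was -0.39. Lamtor5 fell from 54.1 ± 17.9 to 26.4 ± 4.66 CPM (log2 fold change -0.999, edgeR adjusted p of 0.000853), and Lamtor4 from 70.3 ± 15.6 to 36.8 ± 6.54 CPM (log2 fold change -0.92, edgeR adjusted p of 0.000234). All mild-hypo-OPC libraries of Lamtor4 lay below all standard OPC libraries, as was so for 5.40% of all tested genes. The other 4 were Lamtor1, Lamtor2, Lamtor3 and Rraga, with log2 fold changes of -0.61, -0.49, -0.43 and -0.36 and edgeR adjusted p values from 0.0133 to 0.0304. Of 12 fits that left out 1 library, the call held in 7 for Lamtor1, 5 for Lamtor3 and 10 for Rraga, and in all 12 for the other 3. These 6 genes are short, from 1.60 kb for Rraga to 12.2 kb for Lamtor3, and after removal of the trend on gene span Lamtor4 and Lamtor5 remained called (14.1% of all genes were then lower). The other 4 did not pass, at log2 fold changes of -0.42 for Lamtor1, -0.26 for Lamtor2, -0.34 for Lamtor3 and 0.040 for Rraga (edgeR adjusted p values of 0.104, 0.0722, 0.0535 and 0.823), so that Rraga lost its difference while Lamtor3 kept most of it. No member of this list was called with the log2 total count as covariate. With library size alone, Lamtor4 and Lamtor5 stayed called at -0.48 and -0.56, where 4.53% of all genes were called lower. Lamtor1, Lamtor2, Lamtor3 and Rraga were then at -0.18, -0.06, 0.01 and 0.08 and were not called. In thinned libraries Lamtor3 and Rraga did not pass (edgeR adjusted p of 0.125 and 0.111). Among the 13 tested genes for GATOR, KICSTOR and amino acid sensors, which act upstream of the Rag GTPases, 0 were called by edgeR. Of all tested genes, 7.00% were called higher and 17.0% lower. An unadjusted edgeR p below 0.05 was found for 5 of the 13, against 3243 of all 8938 genes. The lowest was that of Nprl2 (log2 fold change -0.40, edgeR adjusted p of 0.0697).

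AMPK restrains mTORC1 when energy is low, and of 7 tested genes of AMPK and its activator LKB1 the gamma subunit Prkag1 fell from 126 ± 22.1 to 72.5 ± 15.9 CPM (log2 fold change -0.79, edgeR adjusted p of 0.000391). It was the only call of the 7 (14.3% lower, against 17.0% of all tested genes). The libraries of Prkag1 did not overlap between groups, where 5.40% of all tested genes had every mild-hypo-OPC library below every standard OPC library. Prkag1 was the only one of the 16 called pathway genes to stay called with the log2 total count as covariate (log2 fold change -1.22, edgeR adjusted p of 0.0348). That fit called 0.481% of all genes lower. The groups do not overlap in depth, so it cannot separate the part of depth from that of oxygen. With the 2 entries of this symbol summed, the log2 fold change was -0.65 (edgeR adjusted p of 0.000391). The 1 tested relative of the TSC-Rheb switch was Tbc1d7, the TSC complex's accessory subunit, at a log2 fold change of -0.21 (edgeR adjusted p of 0.365).

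Of 14 tested targets of mTORC1, 1 rose (7.14%) and 3 fell (21.4%), shares near the 7.00% and 17.0% of all genes. Eif4ebp2, which encodes a translational repressor, rose with a log2 fold change of 0.26 (edgeR adjusted p of 0.0399), a call lost in 6 of 12 fits that left out 1 library. Its partner Eif4e, the cap-binding translation factor, fell from 186 ± 32.1 to 128 ± 8.18 CPM (log2 fold change -0.54, edgeR adjusted p of 0.000594). Rps6, a ribosomal protein whose phosphorylation reports mTORC1 activity, fell by 0.86 on the log2 scale (edgeR adjusted p of 0.000212), and by the same 0.86 with its 2 entries summed, although reads shared with processed pseudogenes may leave the count uncertain. Atf4, a transcription factor of amino acid metabolism, fell from 163 ± 14.3 to 117 ± 8.41 CPM (log2 fold change -0.48, edgeR adjusted p of 0.000333), and after removal of the span trend this became -0.13 (adjusted p of 0.177). In these 3 falling genes the groups did not overlap, where 5.40% of all tested genes had every mild-hypo-OPC library below every standard OPC library. Among 8 tested targets of AKT and mTORC2, Sgk1, a kinase activated by mTORC2, rose from 205 ± 27.6 to 254 ± 3.65 CPM (log2 fold change 0.30, edgeR adjusted p of 0.0130), and Bad, a pro-apoptotic AKT substrate, fell from 36.3 ± 8.22 to 22.4 ± 4.10 CPM (log2 fold change -0.68, edgeR adjusted p of 0.00242). That is 12.5% higher and 12.5% lower, against 7.00% and 17.0% of all tested genes.

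**Figure D5:**
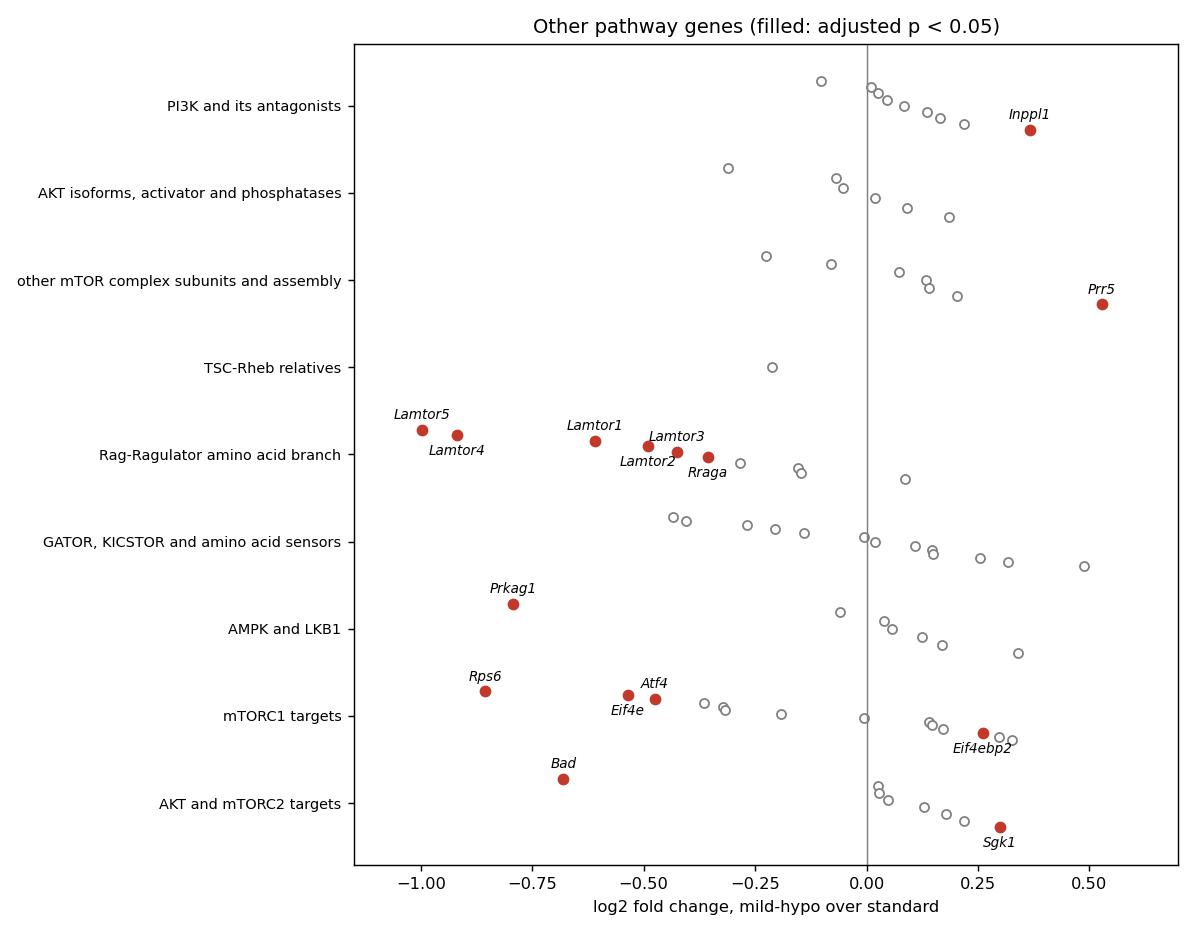
Log2 fold change of mild-hypo-OPCs over standard OPCs (x axis) for 75 of the 76 tested genes of 9 pathway lists (y axis), 1 point per gene, with filled, named points for those at an adjusted p below 0.05. The 6 called genes of the Rag-Ragulator list lie between -0.999 and -0.36, and the 4 plotted genes called higher lie between 0.26 and 0.53.

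The genes that moved most like Mtor and Ddit4 from library to library were found by the Pearson correlation of log2 CPM over all 12 libraries after subtraction of each group's mean. For Mtor these were Fasn (0.925), Maml2 (0.902) and Ptprz1 (0.898). For Ddit4 they were Mrps18c (0.974), Gabarapl3 (0.973) and Polr1h (0.964). The correlations describe libraries that share depth and composition as sources of spread, and the between-group differences of these genes were not alike, since Mrps18c had a log2 fold change of -1.39 where Ddit4 had -0.07.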

How the data were processed

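The authors trimmed reads with Trimmomatic 0.36, aligned them to mRatBN7.2 with STAR 2.7.9a and estimated gene counts with RSEM 1.3.3, as the methods and the submitters' processing notes give it. The deposited table holds whole-number counts per Ensembl gene for 12 libraries, without normalization, and 0 columns were left unused. The library kit is strand-specific, and the strand setting of the counting is not given in the sources used here.

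From these counts, genes above 10 CPM (unscaled) in at least 1 library were kept, and TMM factors and the quasi-likelihood test were computed with edgeR 4.0.16 in R 4.3.3, with no term but the condition, and p-values were adjusted by Benjamini-Hochberg over all 8938 genes. The SE is that implied by the F statistic. limma 3.58.1 (voom) and DESeq2 1.42.0 were alternatives. Exact permutation tests were enumerated in Python 3.11.15, and their p-values were adjusted with SciPy 1.17.1. The steps were tested on simulated data. TMM factors lay between 1.08 and 1.23 (mild-hypo-OPCs) and between 0.809 and 0.945 (standard OPCs). No library looked like a copy of another, since all 15 pairs within either group gave a chi-square per degree of freedom of at least 3.39.

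Gene span and promoter sequences came from RefSeq on GRCr8, matched by symbol (95.59% of tested genes had a span). That build differs from the alignment build. It supplied the promoter segments, and its gene lengths supplied the span groups and the fit with the span trend removed. Named genes are all members, the pathway genes past the threshold, the tested gene with the lowest p in a list without one, and the 3 genes most like Mtor and Ddit4. The members, lists and tests were chosen with earlier results of these data known. Rragb, Seh1l, Kptn and Eif4b were not analysed here. Results for 1 further pathway gene, 1 ratio and 1 marker gene are not reported here.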

Additional observations from a re-analysis of the deposited data

Results flagged for a closer look

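Tsc1 in standard OPC replicate 5, at 6.00 CPM from 9 counts, lay far below the other 5 standard OPC libraries, with a gap to the nearest of them that exceeded Dixon's 95% critical value for 6 samples. It was 1 of 30 groups of values checked, and chance alone gives such a value in about 1 in 20 groups.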

How the results depend on the processing

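Over 12 other processings and 12 fits that left out 1 library, the call of Rheb was lost with library size alone (log2 fold change -0.23, edgeR adjusted p of 0.111) and with the log2 total count as covariate (0.040, where its sign changed). Members called higher (0 with TMM) were 1 with DESeq2, with at least 10 counts in every library, with no filter and with upper-quartile scaling (Mtor each time), 1 with the span trend removed (Ddit4) and 8 with library size alone, and 0 to 1 when 1 library was left out. Members called lower were 0 with library size alone and 0 with the covariate. Other signs that changed were those of Rictor (0.36), Ddit4 (0.37) and Akt1 (0.35) with library size alone, of Deptor (-0.37), Tsc1 (-0.51), Tsc2 (-0.30), Ddit4 (0.29) and Akt1 (0.30) with the covariate, of Tsc1 (-0.24) with thinned libraries, and of Tsc1 (-0.029) and Ddit4 (0.28) with the span trend removed. Leaving out 1 library gave ranges that crossed 0 for Rictor (-0.14 to 0.072), Tsc1 (-0.081 to 0.16) and the Tsc1 to Tsc2 ratio (-0.27 to 0.018). The cause was not tested.

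With library size alone, the covariate, thinned libraries and upper-quartile scaling, all genes called higher by edgeR numbered 5515, 0, 385 and 1136, and pathway genes called higher 52, 0, 2 and 9. With the covariate, no gene was called higher, while 43 genes were called lower. Genes called lower numbered 405 with library size alone, and pathway genes called lower numbered 4 with library size alone and 1 with the covariate. Leaving out 1 library gave 3 to 6 pathway genes higher and 8 to 15 lower. The Rheb to Tsc2 ratio ranged from -0.97 to -0.66 and lost its call in 9 of 12 such tests, while in thinned libraries it was -0.75, not past the threshold.

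Replicate numbers gave no clear pairing of the libraries, since deviations of same-numbered libraries correlated from -0.28 to 0.30 and only replicate 1 matched its own number best. These correlations cannot exclude a pairing, since depth and composition also spread the libraries. With the replicate number as a block, 572 genes were called higher and 1471 lower, and Rheb stayed called at -0.66. The Rheb to Tsc2 ratio (-0.82) was here compared by an exact sign-flip test over same-numbered pairs, with an adjusted p of 0.188. That ratio was lower in the mild-hypo-OPC library of every pair, so its unadjusted p was the smallest this test can give. With so few pairs a single ratio could not pass after adjustment, so the sign-flip test decides nothing here. Deptor could not be tested without mild-hypo-OPC replicate 6. Low counts limited Deptor and Tsc1 most, which fell below 10 counts in 1 or more standard OPC libraries and were not tested where at least 10 counts were required in every library.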
